A study of Mus musculus with 6 samples.

Results

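Aminoacyl-tRNA synthetases, the enzymes that load each amino acid onto its transfer RNA, were compared between macrophages labelled Tet2 knockout and macrophages labelled wild-type. The members were all protein-coding genes of the deposited table whose symbols follow the pattern of this enzyme family (a one-letter amino acid code with "ars", the subunit genes Farsa and Farsb, Eprs and Tarsl2). This rule took 38 of the 54532 genes in the table: 19 cytosolic enzymes or subunits, 17 mitochondrial enzymes, and Gars and Kars, which serve both compartments. RNA sequencing had been done on 6 libraries of mouse bone-marrow-derived macrophages, phagocytes grown from marrow, 3 labelled Tet2 knockout and 3 labelled wild-type. All 6 came from cells treated with monosodium urate (MSU), the crystal of gout, so the response to MSU itself was not part of the comparison. Neither the Tet2 allele, the age and sex of the mice nor the MSU dose is given in the labels. Whether the libraries under one label stem from different mice or cultures is not stated either, so each p-value covers library-to-library spread that may be technical.

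Each synthetase joins its amino acid to tRNA in an ATP-dependent reaction, and the charged tRNA then delivers the amino acid to the ribosome. Nuclear genes encode both the cytosolic enzymes and a largely separate set imported into mitochondria, where they serve the translation of the few proteins encoded by mitochondrial DNA. Several cytosolic synthetases sit together in the multisynthetase complex on the scaffold proteins Aimp1, Aimp2 and Eef1e1. Uncharged tRNA activates the kinase GCN2 (gene Eif2ak4), and the transcription factor ATF4, translated in that state, is known to induce many cytosolic synthetase genes in mammalian cells.

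Total counts per library ran from 13425170 to 14481843 in the libraries labelled knockout and from 11997104 to 13881435 in those labelled wild-type. Of all counts, the 38 genes took 0.437% to 0.454% under the knockout label and 0.456% to 0.480% under the wild-type label. These are shares of unscaled counts and include the mitochondrial leucine enzyme gene Lars2, at 14825 to 19373 counts per library. Sums of scaled counts are given below for the cytosolic genes and for the mitochondrial genes without Lars2. Tet2, read as a check of the labels, stood at 33.7 ± 0.799 CPM under the knockout label and 29.3 ± 1.41 CPM under the wild-type label (CPM are library-size-scaled counts with TMM factors, SD, n = 3 each; log2 change 0.20, edgeR adjusted p = 0.0159). The targeted gene was thus not lower under its own label. Counts over whole genes cannot show a partial deletion, and all directions below are those of the labels. Macrophage markers were abundant, with 8 of 8 in the table and summed levels of 6073 to 6342 CPM (knockout label) and 5797 to 6163 CPM (wild-type label). Of these, 4 were higher and 2 lower by the edgeR test, where 21.6% of all genes tested were higher and 19.2% lower. Their log2 changes ran from -0.47 for Lyz2 to 0.78 for Adgre1. Fibroblast markers were also abundant, summing to 5725 to 5891 CPM in the libraries labelled knockout and 6111 to 6540 CPM in those labelled wild-type. Of the 7 fibroblast markers 4 were lower and none was at 0, with log2 changes from -0.40 for Postn to -0.04 for Pdgfra. In bulk RNA, fewer cells of a type and less RNA per cell cannot be told apart, and the part of these cells in the results below was not tested. Neutrophil, B cell, mast cell and erythroid lists stayed under 3 CPM in sum in each library, with Ly6g, Fcer1a and all 5 erythroid genes at 0. T and NK cell markers summed to 11.1 to 12.6 CPM and 3.22 to 3.96 CPM (knockout and wild-type label), nearly all of it Cd4, and dendritic cell markers to 5.26 to 6.54 CPM and 3.197 to 4.75 CPM.

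The synthetase genes changed little and in both directions. Of the 38 members, all of which passed the filter on low counts, 6 were higher and 5 lower in the libraries labelled knockout, and 27 were not called (edgeR quasi-likelihood test, Benjamini-Hochberg adjusted p under 0.05 over all genes). These 11 calls are 28.9% of the members, where 40.9% of all 13175 genes tested were called, 21.6% higher and 19.2% lower. The median absolute log2 change was 0.09 among members and 0.17 among all genes tested. Genes of lower count than any member are among all genes tested, and these medians were not matched for level. All log2 changes of members lay between -0.31 and 0.25. In 14 members the libraries of both labels were fully separated, against 47.8% of all genes tested. Libraries of one label varied little, with an edgeR biological coefficient of variation of 2.63%. Where 0.1 was assumed instead, edgeR called 0 of the 38 members and 14.3% of all genes, and 3 members had an unadjusted p under 0.05, Iars, Yars2 and Aars2. DESeq2 called 8 members, against 31.5% of all genes, and limma-voom 11, against 40.5%. With upper-quartile scaling 5 members were higher and 6 lower, against 41.6% of all genes called. The count was 11 with RLE scaling (40.9% of all genes called), with a filter of 1 CPM in 3 libraries (42.2%), with protein-coding genes only (43.0%) and with the replicate block (39.9%), and 10 with no filter (20.6%). Without knockout replicates 1, 2 and 3 in turn 9, 11 and 8 members were called, against 35.3%, 35.9% and 35.5% of all genes. Without wild-type replicates 1, 2 and 3 in turn 10, 12 and 9 were called, against 36.4%, 38.6% and 36.4%.

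**Figure D1:**
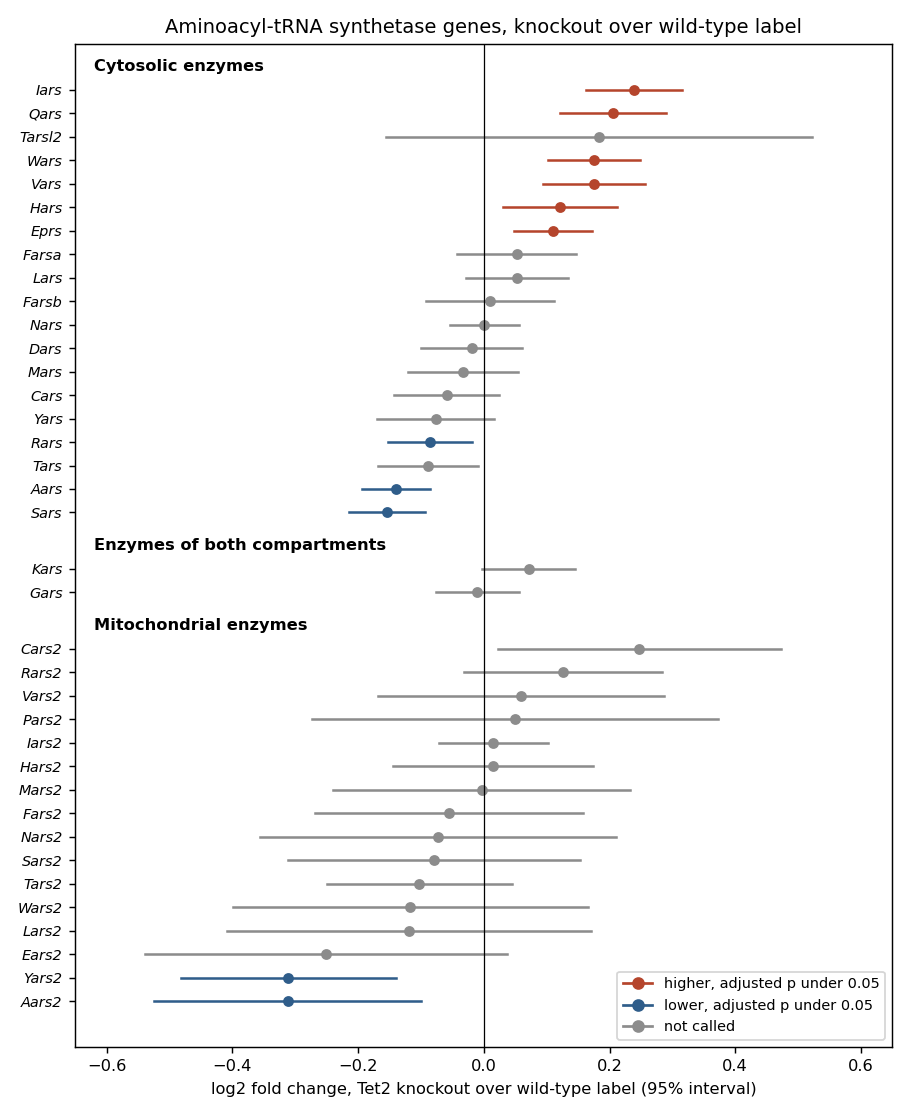
Log2 fold change of synthetase genes, libraries labelled Tet2 knockout over libraries labelled wild-type, with 95% intervals from the edgeR fit (horizontal axis), grouped by compartment. The 6 higher genes are all cytosolic, and the median standard error is 0.11 for mitochondrial and 0.04 for cytosolic members.

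Cytosolic enzymes split, with 6 of 19 higher, 3 lower and 10 not called. The called share of 47.4% lay near the 40.9% of all genes tested, of which 21.6% were higher and 19.2% lower. With upper-quartile scaling the split was 5 higher and 4 lower. The summed level of the 19 genes was 2737, 2754 and 2749 CPM in the libraries labelled knockout, against 2718, 2771 and 2744 CPM in those labelled wild-type. The groups overlapped, and their means of 2747 ± 8.73 and 2744 ± 26.2 CPM (SD, n = 3 each) differed by less than the spread.

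Iars, which charges isoleucine, was the most clearly higher. Iars (ENSMUSG00000037851, mm10 chromosome 13, positions 49682100 to 49734267, plus strand) stood at 132, 129.9 and 134 CPM in the libraries labelled knockout, against 113, 112 and 111 CPM in those labelled wild-type. All 3 libraries labelled knockout were above all 3 labelled wild-type, and the log2 change was 0.24 (SE 0.04; edgeR adjusted p = 1.01e-07). Qars, the glutamine enzyme (chromosome 9, positions 108507706 to 108515941, plus strand), stood at 109.9, 107 and 102 CPM, against 88.0, 96.7 and 92.3 CPM under the wild-type label, again without overlap. Its log2 change was 0.21 (SE 0.04; edgeR adjusted p = 2.89e-05).

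Wars, the tryptophan enzyme, is known as an interferon-induced gene in human cells. Wars (chromosome 12, positions 108860030 to 108894174, minus strand) stood at 156, 149.6 and 146 CPM in the libraries labelled knockout, against 134, 132 and 134 CPM in those labelled wild-type. The groups did not overlap and the log2 change was 0.18 (SE 0.04; edgeR adjusted p = 3.37e-05), an increase of 12.9%. Vars, the valine enzyme, stood at 112, 116 and 121 CPM, against 98.1, 103 and 108 CPM under the wild-type label (log2 change 0.17; edgeR adjusted p = 0.000226). Its lowest library labelled knockout lay above its highest labelled wild-type.

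Eprs encodes a fusion of the glutamate and proline enzymes, which makes it the only cytosolic source of both. It stood at 244, 259 and 248 CPM in the libraries labelled knockout, against 227, 227 and 241 CPM in those labelled wild-type (log2 change 0.11; edgeR adjusted p = 0.00234), without overlap. Eprs did not pass once knockout replicate 2 was left out (edgeR adjusted p = 0.0545). Hars, the histidine enzyme, stood at 87.3, 80.1 and 86.7 CPM, against 76.0, 81.2 and 76.7 CPM under the wild-type label, and here the groups overlapped. Its log2 change of 0.12 passed (edgeR adjusted p = 0.0269), but not with upper-quartile scaling (0.0706), with DESeq2 (0.113), with no filter on low counts (0.0563), or without knockout replicates 1 (0.145) or 3 (0.113) or wild-type replicates 1 (0.129) or 3 (0.0993).

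Sars, Aars and Rars were the cytosolic enzymes that fell. Sars, which charges serine and, with a further conversion, supplies selenocysteine tRNA, stood at 229, 231 and 223 CPM in the libraries labelled knockout, against 253, 256 and 251 CPM in those labelled wild-type. Sars (chromosome 3, positions 108424865 to 108445209, minus strand) thus fell by 10.1% without overlap of the groups (log2 change -0.15, SE 0.03; edgeR adjusted p = 1.39e-05). Aars, the alanine enzyme (chromosome 8, positions 111033144 to 111057664, plus strand), stood at 382, 388 and 405 CPM, against 431, 437 and 427 CPM under the wild-type label. It fell by 9.22%, also without overlap (log2 change -0.14, SE 0.03; edgeR adjusted p = 9.10e-06).

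Rars, the arginine enzyme, stood at 175, 188 and 182 CPM in the libraries labelled knockout, against 189, 194 and 195 CPM in those labelled wild-type. The groups did not overlap but lay close, and the log2 change of -0.09 passed narrowly (edgeR adjusted p = 0.0329). The Rars call was lost with DESeq2 (adjusted p = 0.0781) and on leaving out knockout replicates 1 (edgeR adjusted p = 0.248) or 3 (0.0732) or wild-type replicate 3 (0.0934). Tars, the threonine enzyme, missed the threshold (log2 change -0.09; edgeR adjusted p = 0.0647) and passed with upper-quartile scaling (0.0215) and without wild-type replicate 2 (0.0284).

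**Figure D2:**
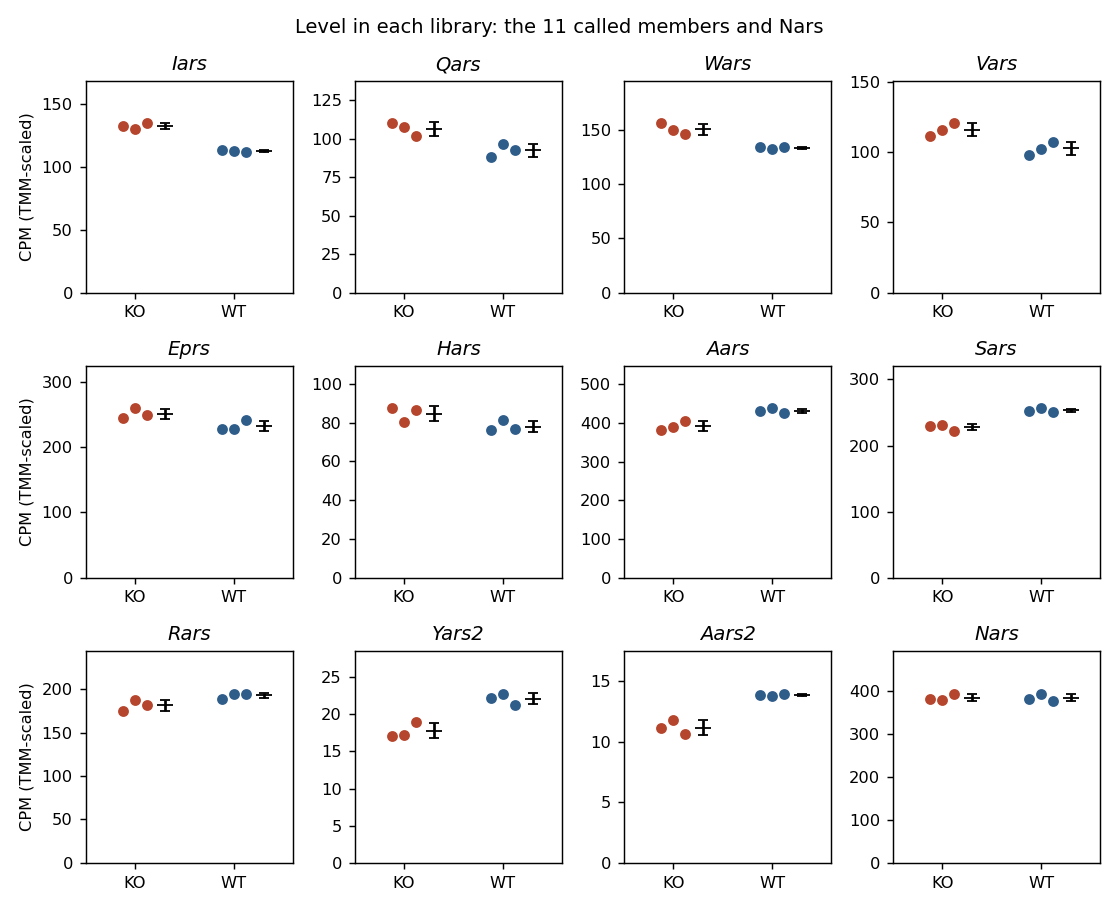
TMM-scaled CPM in each library (points), with the mean and SD of 3 libraries beside them, for the 11 called members and Nars, knockout label (KO) left of wild-type label (WT), vertical axes from 0. Differences are small against the level of each gene, and in Hars and Nars the groups overlap.

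The other 10 cytosolic members did not pass, and for most of them the interval of the difference was narrow. In 9 of the 10 the 95% interval of the log2 change lay within 0.2 of 0 in either direction. Nars, the asparagine enzyme, had the highest level per length of all members, 146 CPM per kilobase of gene model under both labels. It stood at 382, 379.6 and 393 CPM in the libraries labelled knockout, against 382, 394 and 378 CPM in those labelled wild-type, with overlapping groups and an interval of -0.05 to 0.06 (log2). Lars, the leucine enzyme, which also acts as a leucine sensor for the growth kinase mTORC1, stood at 108, 112 and 106 CPM against 100.04, 108 and 107 CPM under the wild-type label (log2 change 0.05; edgeR adjusted p = 0.324). Yars, the tyrosine enzyme, stood at 73.1, 73.7 and 78.2 CPM against 76.9, 83.8 and 76.7 CPM under the wild-type label (log2 change -0.08; edgeR adjusted p = 0.196).

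The exception was Tarsl2, a second threonine enzyme and the lowest cytosolic member, at 5.12 ± 0.552 CPM under the knockout label and 4.51 ± 0.124 CPM under the wild-type label (SD, n = 3 each). Its interval ran from -0.16 to 0.52, and Tarsl2 overlaps the gene Tm2d3 over 923 bases on the same strand. Farsa and Farsb, which encode the subunits of the phenylalanine enzyme, had log2 changes of 0.05 and 0.01. The remaining uncalled members, Dars, Mars and Cars, had log2 changes of -0.02, -0.03 and -0.06. Gars and Kars, whose glycine and lysine enzymes work in both compartments, were not called either (log2 changes -0.01 and 0.07; edgeR adjusted p = 0.839 and 0.118), and 0 of both had an unadjusted p under 0.05 with edgeR, DESeq2 or limma-voom.

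Within the multisynthetase complex calls went both ways. Among its 8 synthetase genes Iars, Qars and Eprs were higher, Rars lower, and Lars, Kars, Dars and Mars not called. Among the 13 cytosolic or dual members outside the complex 3 were higher and 2 lower. The called shares, 4 of 8 inside and 38.5% outside the complex, both lay near the 40.9% of all genes tested. The scaffold gene Eef1e1 fell, at 30.9 ± 0.240 CPM in the libraries labelled knockout and 39.0 ± 1.34 CPM in those labelled wild-type (log2 change -0.34; edgeR adjusted p = 1.08e-05). Aimp2 fell likewise, at 15.7 ± 0.165 and 19.5 ± 0.389 CPM (knockout and wild-type label; log2 change -0.31; edgeR adjusted p = 0.00334). Aimp1, at 46.7 ± 0.964 and 51.0 ± 1.35 CPM, did not pass (log2 change -0.13; edgeR adjusted p = 0.0569). No scaffold gene was higher with edgeR, DESeq2 or limma-voom, at adjusted or unadjusted p, and whether scaffold and enzymes differ was not tested.

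Mitochondrial enzymes were mostly low in level. Of 17 genes 2 fell and 15 did not pass, a called share of 11.8% beside 40.9% of all genes tested (19.2% lower). 0 were higher by edgeR, DESeq2 and limma-voom, and at an unadjusted p under 0.05 edgeR and limma-voom each had 1 higher and DESeq2 0. The median standard error of the log2 change was 0.11 for mitochondrial and 0.04 for cytosolic members, so a change of the size seen in Aars or Sars was not detectable at the depth of most mitochondrial members. The interval of the log2 change lay within 0.2 of 0 in 2 of the 15 uncalled genes.

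Yars2 and Aars2 were the mitochondrial enzymes that fell, and their changes were the largest falls among members. Yars2 charges mitochondrial tyrosine tRNA (ENSMUSG00000022792, chromosome 16, positions 16302965 to 16309640, plus strand). It stood at 17.1, 17.3 and 19.0 CPM in the libraries labelled knockout, against 22.2, 22.8 and 21.3 CPM in those labelled wild-type. The groups did not overlap, and Yars2 fell by 19.4% (log2 change -0.31, SE 0.09; edgeR adjusted p = 0.00190). Aars2, the mitochondrial alanine enzyme (ENSMUSG00000023938, chromosome 17, positions 45506841 to 45520843, plus strand), stood at 11.1, 11.8 and 10.6 CPM, against 13.9, 13.8 and 13.95 CPM under the wild-type label. It had no overlap and a log2 change of -0.31 (SE 0.11; edgeR adjusted p = 0.0132). Aars2 did not pass with DESeq2 (adjusted p = 0.0538) or once knockout replicate 3 was left out (edgeR adjusted p = 0.0568).

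The other mitochondrial members spread around no change. Iars2, the isoleucine enzyme and the highest after Lars2, stood at 89.3, 86.7 and 90.6 CPM in the libraries labelled knockout, against 86.3, 88.2 and 89.3 CPM in those labelled wild-type, overlapping and with an interval of -0.07 to 0.10 (log2). Iars2 overlaps the higher gene Rab3gap2 over 2034 bases on the opposite strand, and whether reads there were assigned by strand is not given. Rars2, the arginine enzyme, stood at 24.4, 25.8 and 24.7 CPM against 24.0, 21.5 and 22.9 CPM under the wild-type label, without overlap but short of the threshold (log2 change 0.13; edgeR adjusted p = 0.208). Cars2, the cysteine enzyme, had the highest log2 change of all members at 0.25 and did not pass (edgeR adjusted p = 0.0723). It passed without knockout replicate 2 (edgeR adjusted p = 0.0318).

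Sars2, the serine enzyme, stood at 9.54, 11.7 and 9.84 CPM in the libraries labelled knockout, against 12.1, 10.1 and 10.6 CPM in those labelled wild-type. Nars2, the asparagine enzyme, stood at 7.16, 6.82 and 7.42 CPM against 5.90, 8.75 and 7.98 CPM under the wild-type label. Both overlapped. Ears2, which charges the mitochondrial glutamate and, before a further conversion, the glutamine tRNA, had a log2 change of -0.25 (edgeR adjusted p = 0.166). Vars2, Pars2, Hars2, Mars2, Fars2, Tars2 and Wars2 did not pass either, with log2 changes from -0.12 for Wars2 to 0.06 for Vars2.

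Levels per length separated the compartments in both groups of libraries, apart from a pair of genes. Among cytosolic and dual members other than Tarsl2 the lowest mean was that of Yars under the knockout label, 12.6 CPM per kilobase of gene model, and that of Eprs under the wild-type label, 12.8. Among mitochondrial members other than Lars2 the highest was Iars2, at 9.999 CPM per kilobase under the knockout label and 9.89 under the wild-type label. The medians were 24.7 CPM per kilobase for cytosolic and 2.34 for mitochondrial members under the knockout label, and 23.9 and 2.50 under the wild-type label. Nars, Rars and Sars led the cytosolic enzymes over all 6 libraries, and Lars2, Iars2 and Rars2 the mitochondrial ones. The neighbours Dars, Mars and Farsb lay between 23.9 and 25.6 CPM per kilobase under both labels. Gene models merge the exons of all transcripts, so the values depend on the model as well as on the RNA.

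**Figure D3:**
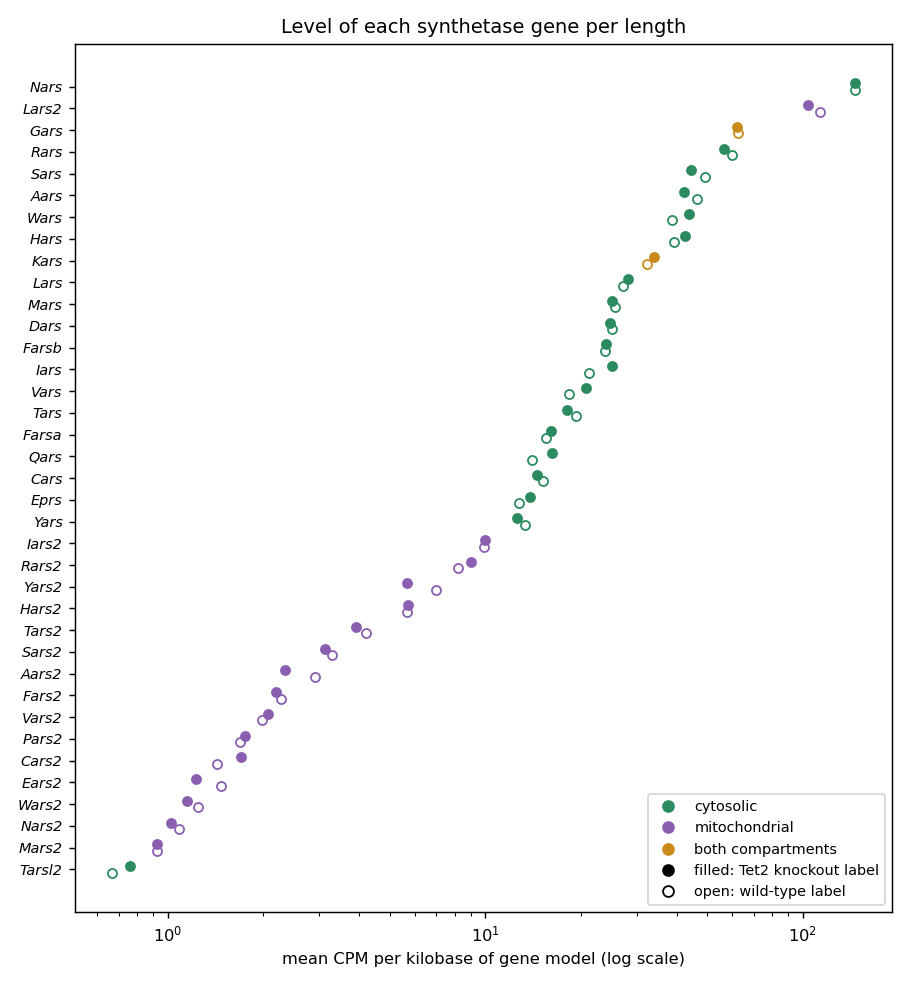
Mean CPM per kilobase of gene model (log axis) for synthetase genes, filled points for libraries labelled Tet2 knockout and open points for libraries labelled wild-type, coloured by compartment. Mitochondrial members lie below cytosolic ones except Lars2, at 104 and 113 CPM per kilobase, and Tarsl2 lies lowest.

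Lars2, the mitochondrial leucine enzyme, stood apart from its class in level and in spread. Lars2 (ENSMUSG00000035202, chromosome 9, positions 123366927 to 123462666, plus strand) stood at 1231, 1053 and 1177 CPM in the libraries labelled knockout, against 1376, 1271 and 1112 CPM in those labelled wild-type. It alone made up 78.2% to 80.8% of the summed mitochondrial synthetase level in the libraries labelled knockout and 79.0% to 82.3% in those labelled wild-type. Its groups overlapped and it was not called (log2 change -0.12, SE 0.11; edgeR adjusted p = 0.464), although its counts, 14825 to 19373 per library, were the highest of all members. Its spread went with that of a gene annotated as nuclear ribosomal RNA. The annotated rRNA gene CT010467.1 stood at 3754, 3050.0 and 3789 CPM in the libraries labelled knockout and 4023, 3774 and 3149 CPM in those labelled wild-type. Both were lowest in knockout replicate 2 among the knockout libraries, and both were highest in replicate 1 and lowest in replicate 3 among the wild-type libraries. Their order differed in the other knockout libraries, with Lars2 highest in replicate 1 and the rRNA gene highest in replicate 3. The ratio of Lars2 to this gene stayed between 0.311 and 0.345 in the libraries labelled knockout and between 0.337 and 0.353 in those labelled wild-type. Its ratio to Gm23935, annotated as a miRNA, was 0.501 to 0.523 (knockout label) and 0.507 to 0.521 (wild-type label). The lincRNA gene Gm26917, beside the rRNA gene, was instead higher (log2 change 0.22; edgeR adjusted p = 1.08e-07). These genes were picked after their values were seen, and the part of ribosomal RNA in the Lars2 counts was not tested. Without Lars2 the summed level of the other 16 mitochondrial genes was 293, 293 and 290.0 CPM in the libraries labelled knockout, against 297, 296 and 296 CPM in those labelled wild-type.

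**Figure D4:**
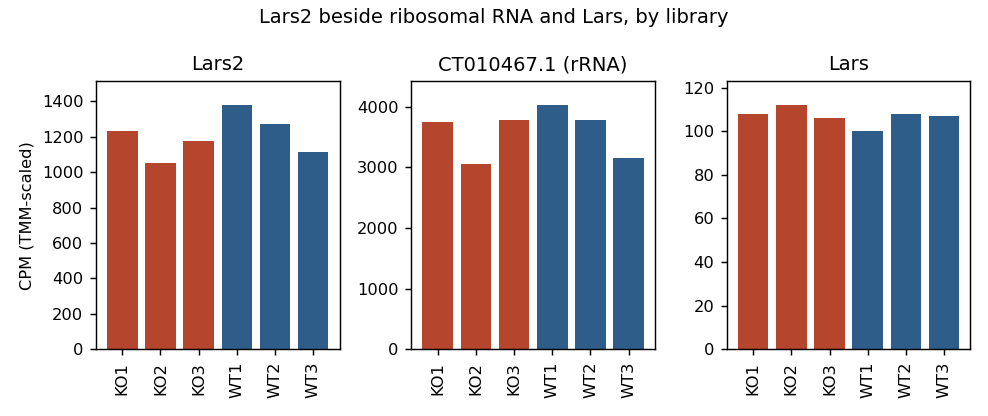
TMM-scaled CPM in each library for Lars2, the ribosomal RNA gene CT010467.1 and Lars, the 3 libraries labelled knockout (KO1 to KO3) left of the 3 labelled wild-type (WT1 to WT3), bars from 0. Lars2 and the rRNA gene both have their lowest bar in KO2 and their highest in WT1, whereas Lars stays between 100.04 and 112 CPM.

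For 14 amino acids with separate genes, the cytosolic and the mitochondrial enzyme were compared within each library as a log2 ratio of CPM. In 7 of the 14 pairs the ratios of the libraries labelled knockout did not overlap those labelled wild-type, 4 with a higher and 3 with a lower ratio, where 47.8% of single genes tested had no overlap. The ratio was higher for tryptophan (Wars to Wars2, 4.47 ± 0.121 under the knockout label and 4.17 ± 0.0535 under the wild-type label), tyrosine (2.08 ± 0.0305 and 1.84 ± 0.0423), isoleucine (0.57 ± 0.00894 and 0.35 ± 0.0350) and alanine (5.14 ± 0.110 and 4.96 ± 0.0266; SD, n = 3 each). Among the lower ratios were those for cysteine (2.97 ± 0.187 and 3.27 ± 0.0384) and arginine (2.86 ± 0.0188 and 3.08 ± 0.102). Each of the 7 separated pairs reached p = 0.1 in an exact two-sided permutation test, the smallest that 3 against 3 libraries allow (adjusted p = 0.2 over the 14 pairs), so none could pass 0.05. For alanine both enzymes fell, Aars2 by more than Aars on the log2 scale, so the ratio was higher. The leucine pair overlapped.

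**Figure D5:**
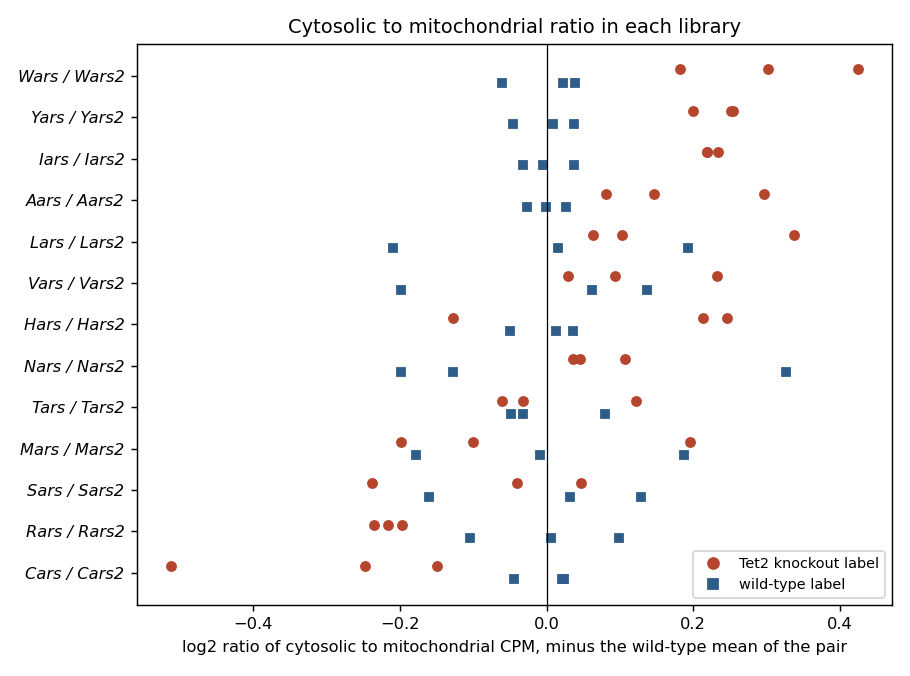
Log2 ratio of the cytosolic to the mitochondrial enzyme in each library, by amino acid, shown relative to the mean of the libraries labelled wild-type for that pair (horizontal axis), knockout label as circles above wild-type label as squares. The groups separate to the right for Wars, Yars, Iars and Aars and to the left for Rars and Cars.

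Genes of the response to uncharged tRNA moved both ways. Of the 27 genes tested in the list of uncharged tRNA sensing and ATF4 targets 10 were higher and 8 lower, where 21.6% of all genes tested were higher and 19.2% lower. With DESeq2 the balance was 7 higher and 9 lower. Atf4 itself fell, at 347 ± 12.8 CPM in the libraries labelled knockout and 449 ± 10.3 CPM in those labelled wild-type (log2 change -0.37; edgeR adjusted p = 1.49e-22), and so did Ddit3, which encodes the stress factor CHOP (log2 change -0.51; edgeR adjusted p = 1.54e-17). Ddit3 overlaps the synthetase gene Mars over 68 bases on the opposite strand. The serine synthesis genes Phgdh and Psat1 rose, with log2 changes of 0.50 and 0.33. Atf4 mRNA does not measure ATF4 protein, which is set largely by translation.

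Promoters were read from the RefSeq table (build GRCm38.p6, 250 bases before to 50 after the annotated start), which matched 28 of the 38 members, with Mars under its RefSeq symbol Mars1. Wars, Vars, Hars, Lars, Nars, Cars, Rars, Pars2 and Hars2 were among those without an entry. The C/EBP-ATF response element that ATF4 binds, searched on both strands as TGATGNAA, occurred in the windows of 5 members, against 3.97% of all 32851 windows in the table. The 5 were Iars, Aars, Gars, Tars and Yars, cytosolic or dual enzymes all, among 14 such members with a window, and none of the 14 mitochondrial windows held it. They are shown because they carry the same element and had different calls, with the element in capitals, on the gene's strand. The Iars stretch is chr13:49681880-49682144 (plus strand) and the Aars stretch chr8:111033592-111033858 (plus strand, with 2 elements). The shorter stretches are chr6:55037945-55038004 (Gars, plus strand), chr15:11399640-11399699 (Tars, minus strand) and chr4:129189880-129189932 (Yars, plus strand).
Iars: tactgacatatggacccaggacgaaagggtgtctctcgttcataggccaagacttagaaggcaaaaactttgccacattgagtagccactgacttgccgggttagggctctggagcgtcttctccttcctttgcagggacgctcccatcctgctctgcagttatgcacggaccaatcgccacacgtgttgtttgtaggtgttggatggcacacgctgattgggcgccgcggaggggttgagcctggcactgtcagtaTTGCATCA
Aars: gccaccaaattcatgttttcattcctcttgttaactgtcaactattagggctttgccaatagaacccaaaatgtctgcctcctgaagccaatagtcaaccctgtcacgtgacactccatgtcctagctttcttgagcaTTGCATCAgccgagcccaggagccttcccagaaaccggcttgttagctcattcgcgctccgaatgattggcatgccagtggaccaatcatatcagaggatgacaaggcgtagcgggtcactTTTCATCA
Gars: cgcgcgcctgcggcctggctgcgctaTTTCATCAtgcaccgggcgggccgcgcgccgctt
Tars: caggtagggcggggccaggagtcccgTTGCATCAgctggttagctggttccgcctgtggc
Yars: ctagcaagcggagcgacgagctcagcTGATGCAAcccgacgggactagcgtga
Of these, Iars was higher (log2 change 0.24) and Aars lower (-0.14). Gars, Tars and Yars were not called, with log2 changes of -0.01, -0.09 and -0.08. The called members Wars, Vars, Hars and Rars had no window, and the part of ATF4 in these changes was not tested. A match of letters is a description of the sequence and not a site shown to be bound.

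The E-box CACGTG, which MYC and other factors bind, occurred in the windows of Iars, Aars, Tars, Farsb and Ears2, against 7.15% of all windows, and did not overlap the response element. The interferon-stimulated response element, searched on both strands as GAAA, any 2 bases and GAAA, occurred in the window of Qars alone. This is 1 of the 28 members with a window, near the 3.44% of all windows. Wars had no window, and the part of this element in the Qars change was not tested. The Qars stretch is shown because Qars was among the higher members (chr9:108507780-108507839, plus strand, with the element in capitals).
Qars: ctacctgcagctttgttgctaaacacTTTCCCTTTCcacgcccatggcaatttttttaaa

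Other genes around tRNA charging were counted from lists chosen with earlier results known. Among genes for tRNA export, editing, the CCA-adding step and selenocysteine, 3 of 11 tested fell and 0 were higher by edgeR, DESeq2 or limma-voom, also at an unadjusted p under 0.05. DESeq2 called 2 of the 11 lower, and 19.2% of all genes tested were lower by edgeR. Trnt1, which adds the CCA end that a synthetase charges, stood at 40.7 ± 1.14 CPM in the libraries labelled knockout and 49.0 ± 1.56 CPM in those labelled wild-type (log2 change -0.26; edgeR adjusted p = 0.000109). Secisbp2 and Sephs1, both of selenoprotein synthesis, fell by 0.26 and 0.16 on the log2 scale. Among partners of mitochondrial charging and translation 3 of 11 rose and 1, Trnt1, fell, where 21.6% of all genes tested were higher. Mtfmt, which formylates the initiator methionine tRNA of mitochondria, stood at 13.9 ± 0.417 and 10.9 ± 0.177 CPM (knockout and wild-type label; log2 change 0.34; edgeR adjusted p = 0.00618), and the elongation factor genes Gfm2 and Gfm1 had log2 changes of 0.22 and 0.14.

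For the lists that follow, the share of all genes tested that edgeR called was 40.9%, with 21.6% higher and 19.2% lower. Cytosolic initiation and elongation factors were higher in 2 of 17 and lower in 6. Eef2, which moves the ribosome along, and Eef1a1, which brings charged tRNA to it, rose by 0.18 and 0.10 on the log2 scale, while Eif4a1 and Eif4e of the cap-binding complex fell by 0.17 and 0.25. Amino acid transporters were higher in 12 of 23 and lower in 3, with Slc7a8, Slc43a2 and Slc16a10 at log2 changes of 0.54, 0.46 and 0.51. Slc3a2, the shared heavy chain of several of these transporters, fell by 0.47, Slc7a11, the cystine carrier, by 0.38 and Slc7a7 by 0.33. Genes of Myc and its partners were higher in 5 of 11 and lower in 3 (3 and 3 with DESeq2), with Myc itself at a log2 change of 0.19 (edgeR adjusted p = 0.00709), Mxd1 at 1.31 and Mxi1 at -0.76. Genes by which mTORC1 senses amino acids were higher in 4 of 21 and lower in 7, with Rragd and Rheb at -0.36 and -0.24 and Mtor at 0.27. The median log2 change of these lists ran from -0.31 for the 3 scaffold genes to 0.20 for the transporters, beside -0.0012 for the synthetases and -0.0031 for all genes tested.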

How the data were processed

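The table holds whole-number read counts per gene for 6 libraries, 3 of each label, as the authors deposited them, not normalised, with gene symbols, mm10 positions and another column, the gene model length in bases. Per the submitters' processing notes, reads were processed with fastp, STAR and featureCounts on mm10. Versions and the strand setting are not given in the sources used here. Of the members, 10 overlap another tested gene. Tarsl2 overlaps Tm2d3 over 923 bases on the same strand, where no strand setting could separate reads. The other overlaps are on opposite strands, and without the strand setting it is not known whether reads there were told apart.

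Groups came from the sample titles. The test was that of edgeR 4.0.16 under R 4.3.3: filterByExpr (minimum count 10), TMM, robust quasi-likelihood test, genotype label as the only term, Benjamini-Hochberg adjustment over all genes, threshold 0.05, prior count 0.125. Log2 changes are knockout minus wild-type label. Alternatives used DESeq2 1.42.0 and limma 3.58.1 among others. The test was checked on simulated counts. Figures were drawn with matplotlib 3.10.9.

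The members, lists and tests were chosen with earlier results of these data known. Values per library are given for called members with an absolute log2 change of at least 0.3, the 3 highest per length in each compartment and their partners. The other called members, and single members named for a value, were chosen after their values were seen. From each list up to 4 genes with the smallest p are named, and further genes were chosen after their values were seen. Values of 1 member, which stays in the counts and sums, are not reported here.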

Additional observations from a re-analysis of the deposited data

How the results depend on the processing

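With an assumed biological coefficient of variation of 0.1, edgeR called 0 of the 38 synthetase genes (0 of the 19 cytosolic and 0 of the 17 mitochondrial, with 3, 1 and 2 at an unadjusted p under 0.05), 1885 of all genes and 21 of the genes in the pathway lists, against 11, 9, 2, 5385 and 68 in the main test. The mitochondrial count was 1 with DESeq2 and 1 to 3 with each library left out. The total counts of called genes for all synthetases, cytosolic synthetases, all genes and the pathway lists together stayed within 1.5 times the main ones under the other alternatives. By direction, 3 synthetases were lower with DESeq2 and 3 without knockout replicate 3, against 5 in the main test, and 3 genes of Myc and its partners were higher with DESeq2, against 5. Of the 11 called members, 10 were also called with upper-quartile scaling or no filter, 8 with DESeq2 and 8 to 11 with each library left out.

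Signs reversed only in uncalled genes. With upper-quartile scaling the log2 changes of Farsb, Nars, Iars2 and Hars2 were -0.0094, -0.019, -0.0049 and -0.0051, and Nars was at -0.0032 with RLE scaling, -0.0032 with DESeq2 and -0.0039 with no filter. With each library left out in turn the log2 change ran from -0.030 to 0.013 for Gars, -0.034 to 0.043 for Farsb, -0.015 to 0.012 for Nars, -0.054 to 0.0093 for Dars, -0.0080 to 0.15 for Vars2, -0.033 to 0.15 for Pars2, -0.0028 to 0.033 for Iars2, -0.070 to 0.063 for Hars2, -0.084 to 0.11 for Mars2, -0.23 to 0.033 for Nars2 and -0.18 to 0.0018 for Sars2.

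No shared deviation of same-numbered libraries was seen (correlations from 0.00365 to -0.0206), which cannot show whether the replicate numbers pair the libraries. With the replicate block 11 members were called. Low counts limit precision, and the lowest in a library was 56 among mitochondrial and 53 among cytosolic members (Tarsl2). The median level was 12.3 CPM for mitochondrial and 107.6 CPM for cytosolic members under the knockout label. Under the wild-type label it was 13.0 and 104.9 CPM.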
